A study of Arabidopsis thaliana with 2 samples.

Results

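The histone genes of Arabidopsis thaliana were described in 1 RNA-seq library of an ARF18 overexpression line and 1 library of wild-type Columbia. ARF18 is a transcription factor named for its role in the response to auxin. The line, labelled 35SARF18OE-2, is in the Columbia ecotype, and 35S is the name of a plant virus promoter that is active in most tissues. Both libraries were made from whole seedlings, labelled as 7 days old in one place and in another as grown for 4 days in the dark and then 7 days in white light. Members were the nuclear loci whose database match text in the deposited table names histone H1, H2A, H2B, H3 or H4 and names no enzyme that modifies histones. The rule matched 49 transcript models of 42 loci, out of 21682 nuclear loci with counts. Of the 42 loci, 37 had a mean RPKM (reads per kilobase of transcript, scaled to the counted reads of the library) of 1 or more and are called expressed, as are 15083 nuclear genes in all. With 1 library per genotype there was no replicate and no test between genotypes, so the values describe these 2 libraries.

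Histones package nuclear DNA. Pairs of H2A, H2B, H3 and H4 form the nucleosome core around which DNA is wound, and the linker histone H1 binds where the DNA enters and leaves it. In plants most core histone transcripts carry a poly(A) tail and accumulate when DNA is replicated, in dividing cells and in cells that endoreduplicate. Variants have their own uses: H3.1 is deposited behind the replication fork and H3.3 at transcribed genes, H2A.Z sits near gene starts, H2A.X is phosphorylated at DNA breaks, H2A.W marks heterochromatin, and CENH3 replaces H3 at centromeres. By class, the 42 loci were 3 of H1, 12 of H2A, 9 of H2B, 12 of H3 and 6 of H4. One of the H2A loci, AT4G04409, is a pseudogene in the TAIR 10.1 reference annotation.

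Sequences upstream of 7 of these genes are shown because they hold letters that recur before histone genes, and because 2 of them are nearly identical to each other. Each is the 250 bases before the annotated gene start, read from the TAIR 10.1 genome (RefSeq) in the direction of transcription, and capitals mark matches on either strand to 3 motifs: the histone octamer CGCGGATC, the histone hexamer ACGTCA and the E2F-type site TTTGGCGC. None of these matches overlapped another. AT1G09200, an H3.1 gene, is on the minus strand at chr1:2972335-2972584. HTA10, a core H2A gene, is on the plus strand at chr1:18926561-18926810. HTB11, of H2B, lies at chr3:16914132-16914381 on the minus strand, and AT2G28720, the H2B gene with the highest ratio below, at chr2:12326558-12326807 on the plus strand. AT5G10980, an H3.3 gene, lies at chr5:3473571-3473820 on the minus strand. The H4 genes AT3G45930 and AT3G46320 lie at chr3:16883066-16883315 on the plus strand and chr3:17020429-17020678 on the minus strand.
AT1G09200: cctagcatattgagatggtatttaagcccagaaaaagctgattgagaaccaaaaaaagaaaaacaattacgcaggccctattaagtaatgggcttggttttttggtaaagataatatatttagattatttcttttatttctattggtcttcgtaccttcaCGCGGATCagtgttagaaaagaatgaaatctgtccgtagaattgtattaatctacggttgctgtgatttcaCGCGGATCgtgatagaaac
HTA10: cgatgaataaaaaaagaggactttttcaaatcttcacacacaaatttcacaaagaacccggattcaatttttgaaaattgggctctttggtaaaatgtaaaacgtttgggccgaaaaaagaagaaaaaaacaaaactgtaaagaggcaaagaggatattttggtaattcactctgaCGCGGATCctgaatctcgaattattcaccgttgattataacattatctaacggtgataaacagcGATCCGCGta
HTB11: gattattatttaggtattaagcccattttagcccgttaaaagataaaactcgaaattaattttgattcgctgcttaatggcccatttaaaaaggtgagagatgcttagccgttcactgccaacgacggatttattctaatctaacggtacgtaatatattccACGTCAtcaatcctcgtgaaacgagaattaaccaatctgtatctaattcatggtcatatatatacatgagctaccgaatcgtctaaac
AT2G28720: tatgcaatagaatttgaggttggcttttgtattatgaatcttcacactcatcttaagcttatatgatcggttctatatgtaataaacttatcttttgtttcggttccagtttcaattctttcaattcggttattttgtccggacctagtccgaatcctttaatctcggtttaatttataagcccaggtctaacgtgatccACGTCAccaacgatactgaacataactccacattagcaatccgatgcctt
AT5G10980: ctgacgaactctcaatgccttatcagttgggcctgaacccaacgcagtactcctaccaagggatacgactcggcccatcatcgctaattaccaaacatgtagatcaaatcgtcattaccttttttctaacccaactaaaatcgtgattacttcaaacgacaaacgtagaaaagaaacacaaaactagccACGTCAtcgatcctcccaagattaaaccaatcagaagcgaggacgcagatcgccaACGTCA
AT3G45930: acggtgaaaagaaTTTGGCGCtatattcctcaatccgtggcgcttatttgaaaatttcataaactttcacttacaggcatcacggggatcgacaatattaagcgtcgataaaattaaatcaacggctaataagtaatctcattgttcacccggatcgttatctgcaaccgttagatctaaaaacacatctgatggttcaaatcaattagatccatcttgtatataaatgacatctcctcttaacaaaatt
AT3G46320: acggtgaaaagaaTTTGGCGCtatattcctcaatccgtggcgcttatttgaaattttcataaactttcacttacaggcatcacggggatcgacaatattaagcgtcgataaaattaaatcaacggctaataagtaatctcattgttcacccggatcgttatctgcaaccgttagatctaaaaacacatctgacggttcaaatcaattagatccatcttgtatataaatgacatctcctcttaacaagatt

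The octamer was present in the 250 bases before 9 of 41 protein-coding members, against 0.135% of all nuclear protein-coding genes. These 9 were 3 of 5 H3.1 genes, 2 of 4 core H2A genes, 1 of 3 H3.3 genes, 1 of 3 H2A.W genes, 1 of 6 H4 genes and 1 of 3 H1 genes. The 11 copies began between 126 and 10 bases before the start, and AT1G09200 and HTA10 held more than 1 copy. The hexamer was present in 10 of 41, against 7.69% of all genes, and 7 of these 10 were among the 9 H2B genes. In these 250 bases, TTTGGCGC was found before the H4 genes AT3G45930 and AT3G46320 only, against 0.361% of all genes, and the related TTTCCCGC before none of the 41, against 0.619%. CCAAT, not marked in the sequences, was present in 29 of 41, against 46.0% of all genes. The upstream sequences of AT3G45930 and AT3G46320 were identical at 247 of 250 positions. In 500 bases before the coding start, a window that takes in the transcribed leader, the octamer was found in 9 of 41 members (0.189% of all genes), but not in the same 9. There it was before 3 H3.1, 3 core H2A, 1 H2A.W, 1 H1 and 1 H2B gene, and before no H4 or H3.3 gene. The hexamer was found in 12 of 41 (12.3%), of which 8 were H2B genes. TTTCCCGC was found in 2 of 41 (1.34%), the CENH3 gene and 1 H2A.Z gene, and TTTGGCGC in 3 of 41 (0.66%), 2 H4 genes and 1 H3.1 gene. CCAAT was found in 35 of 41 (67.9%).

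ARF18 itself had 472 counts in the overexpression library and 97 in the wild-type library, a count ratio of 5.03 (95% exact conditional binomial interval 4.04 to 6.33). Ratios of counts here are normalised to the library totals of 6824188 counted reads in the overexpression library and 7059226 in wild type, and their intervals cover counting error only. All 5 shoot markers and all 6 root markers were expressed, as whole seedlings should hold them, and the only pollen marker of 3 with values here had 0 counts in the overexpression library and 3 in wild type. The root markers differed in both directions, with 4 counting intervals above 1 and 2 below. Among them SCR had a ratio of 0.642 (0.563 to 0.731) and COBL9 0.780 (0.628 to 0.966), while WER had 3.103 (1.07 to 10.9) and TIP2;3 2.74 (1.96 to 3.89). Their median log2 ratio was 0.41, or 0.32 with the adjustment for transcript length described below, and their summed RPKM was 212 in the overexpression library and 189.5 in wild type. The shoot markers had a median of 0.03, with 2 intervals above 1 and 2 below. The part of tissue proportions in the histone values was not tested.

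Histone transcripts took a larger share of the overexpression library. They made up 0.408% of all counted reads there (95% exact binomial interval 0.404 to 0.413) and 0.301% in wild type (0.297 to 0.305), which is 27871 counts under overexpression and 21236 in wild type, a ratio of 1.36 (1.33 to 1.38). In bulk RNA, more cells that hold a transcript and more of it per cell cannot be told apart. Of the 37 expressed members, 34 had a log2 ratio above 0, against 53.8% of all expressed genes. The log2 ratio is log2 of (RPKM + 1) for overexpression over wild type. Counting intervals lay wholly above 1 for 30 members, against 18.7% of all expressed genes, and wholly below 1 for none, against 15.6%. On this log2 scale no expressed member was 2-fold higher, against 1.25% of all expressed genes, and none 2-fold lower, against 0.663%. The added 1 RPKM keeps low genes under that limit: by counts alone AT2G28720 had a ratio of 2.07 and AT1G13370, with 11 reads in all, 0.388. At 1.5-fold, 8 members were higher and 1 lower, against 6.24% and 4.71% of all genes. The median log2 ratio of the members was 0.43, against 0.03 over all expressed genes.

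Much the same direction was seen in other short transcripts. Longer transcripts had lower log2 ratios across the 15083 expressed genes (Spearman's rho -0.52 over genes, not independent replicates), and the expressed histone transcripts are short, with a median of 714 bases against 1415 for all. Of the 776 other expressed genes of 648 to 753 bases, the span between the quartiles of the histone lengths, 81.7% had a log2 ratio above 0, with a median of 0.31. Where these genes also had 200 or more reads in both libraries together (365 genes), 89.3% were above 0, 65.2% had a counting interval above 1, and the median was 0.35. Genes of these lengths at a mean RPKM of 50 or more (238, histone genes included) were nearer still to the histone values, with 93.3% above 0, 80.3% with intervals above 1 and a median of 0.39, or 0.07 after the length adjustment described next. The 25 histone genes at such levels, not limited to these lengths (518 to 1495 bases), were all above 0. Their median was 0.44, or 0.17 after that adjustment. The 28 histone genes with 200 or more reads, of any length, were all above 0 and all had intervals above 1. Their median was 0.45 and their count ratios lay between 1.20 and 1.64. Over all genes with 200 or more reads, 51.9% were above 0 and 27.7% had such intervals.

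Length-adjusted values, from which the median of genes of like length (1 of 50 bins) was subtracted, were closer to 0. The median of the 37 members was 0.15, and 29 were above 0, against 49.9% of all expressed genes. With a further adjustment for GC content the median was again 0.15, and 30 were above 0, against 49.9%. After length adjustment no member was 2-fold higher, against 0.55% of all expressed genes, and 2 were 1.5-fold lower (HIS1-3 and AT1G13370), against 4.83%. Of the 28 members with 200 or more reads, 26 were above 0 after length adjustment, against 49.9% of all genes with as many reads, of any length. Their values ran from -0.04 to 0.40, and the 2 below 0 were HTB9 (-0.03) and HTB2 (-0.04). The median of these 28 was 0.17 after length adjustment. It was 0.03 for the 365 other genes of 648 to 753 bases with as many reads. Of the 9 expressed members with fewer reads, 3 were above 0, against the 49.9% of all expressed genes. The summed RPKM of all members was 5521 in the overexpression library and 4031 in wild type, a ratio of 1.37 that became 1.13 after length adjustment.

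**Figure D1:**
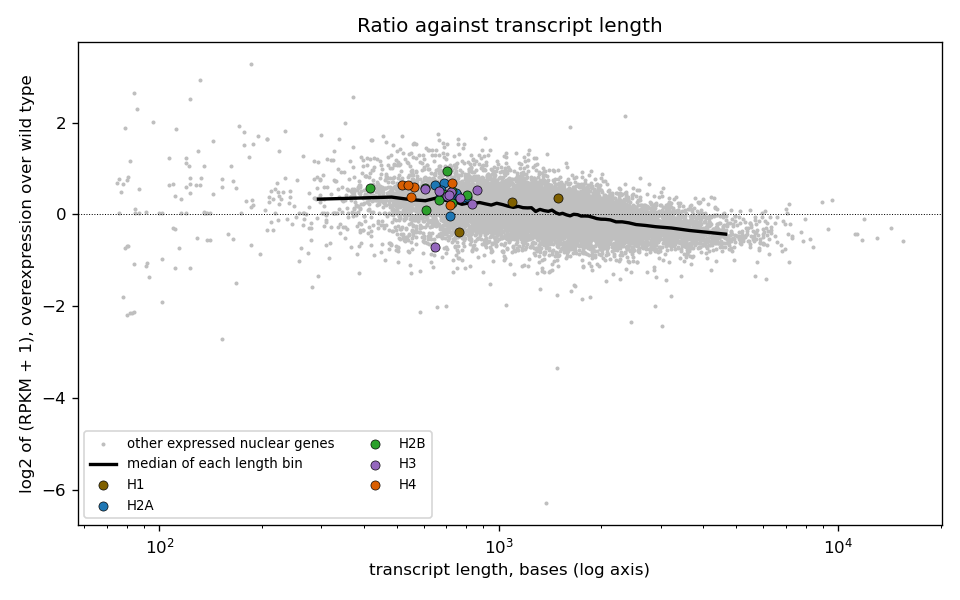
Log2 ratio of (RPKM + 1), overexpression over wild type, against transcript length in bases on a log axis for the 15083 expressed nuclear genes. Grey points are other genes, coloured points the 37 expressed histone genes by class, and the black line joins the medians of the 50 length bins. The line falls with length, and 29 of the 37 histone genes lie above the median of their bin.

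As measured, linker histones showed the smallest summed ratio of the classes, but not after length adjustment. The H1 genes together had 3098 counts in the overexpression library and 2624 in wild type, a ratio of 1.22 (1.16 to 1.29). After length adjustment of their RPKM it was 1.11, and H2B then had the smallest ratio, 1.10. AT1G06760, which the table names H1.1, had 2357 counts under overexpression against 2018 in wild type, or an RPKM of 317 under overexpression and 262 in wild type, and a ratio of 1.21 (1.14 to 1.28). It gave 76.1% of H1 counts in the overexpression library and 76.9% in wild type. AT2G30620, named H1.2, had 728 counts under overexpression against 587 in wild type, a ratio of 1.28 (1.15 to 1.43). Its transcript of 1495 bases is the longest of the members, and its log2 ratio was 0.35 both before and after length adjustment. HIS1-3, the linker histone gene known to be induced by drought, had 13 counts in the overexpression library and 19 in wild type, with an interval of 0.321 to 1.51 that includes 1.

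Every H2A variant group stood higher in the overexpression library. The H2A genes together had 7022 counts under overexpression against 5308 in wild type, a ratio of 1.37 (1.32 to 1.42), or 1.13 after length adjustment. HTA9, an H2A.Z gene and the H2A gene with the highest level, had 2203 counts under overexpression against 1744 in wild type, or an RPKM of 400.0 under overexpression and 306 in wild type, and a ratio of 1.31 (1.23 to 1.39). HTA11, also of H2A.Z, had 500 counts under overexpression against 322 in wild type, and with 1.61 (1.39 to 1.85) its ratio was the highest of the H2A genes. Its log2 ratio was 0.68, and 0.37 after length adjustment. HTA8, the remaining H2A.Z gene, had 14 counts under overexpression and 15 in wild type over 3 transcript models, with an interval of 0.432 to 2.15 that includes 1. In the H2A.Z group as a whole the ratio was 1.35 (1.28 to 1.43).

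H2AXA, an H2A.X gene of DNA break signalling, had 1354 counts under overexpression against 1016 in wild type, a ratio of 1.38 (1.27 to 1.497). Among the H2A.W genes of heterochromatin, HTA6 had 1122 counts under overexpression against 861 in wild type, a ratio of 1.35 (1.23 to 1.47), and HTA7 had 444 counts under overexpression against 355 in wild type, a ratio of 1.29 (1.12 to 1.49). HTA12, the other H2A.W gene, had 0 counts in the overexpression library and 2 in wild type, too few to compare. The core H2A genes together had 1384 counts under overexpression against 993 in wild type, a ratio of 1.44 (1.33 to 1.57). HTA10 had 842 counts under overexpression against 601 in wild type, a ratio of 1.45 (1.304 to 1.61), and HTA13 had 278 counts under overexpression against 183 in wild type, a ratio of 1.57 (1.299 to 1.90). RAT5, named for a mutant that resists Agrobacterium transformation, had 220 counts under overexpression against 175 in wild type, a ratio of 1.3 (1.06 to 1.60). Its log2 ratio of 0.37 was 0.01 after length adjustment. HTA2 had 44 counts under overexpression against 34 in wild type, with an interval that includes 1. After length adjustment of RPKM, the group ratios were 1.13 for H2A.Z, 1.13 for H2A.X, 1.11 for H2A.W and 1.13 for core H2A.

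The mix of H2A variants was close to equal in both libraries. H2A.Z made up 38.7% of H2A counts under ARF18 overexpression (95% exact interval 37.6 to 39.8) and 39.2% in wild type (37.9 to 40.5). Core H2A made up 19.7% under overexpression (18.8 to 20.7) and 18.7% in wild type (17.7 to 19.8). H2A.W made up 22.3% under overexpression and 22.9% in wild type, and H2A.X 19.3% under overexpression and 19.1% in wild type. For each of the 4 groups the intervals of both libraries overlapped. H2A.X is H2AXA alone here. With GAMMA-H2AX, which the text rule missed, H2A.X made up 25.5% under overexpression and 25.7% in wild type.

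Among the expressed members, the highest level and the largest ratio were those of single H2B genes. The 9 H2B genes had 6860 counts in the overexpression library and 5329 in wild type, a ratio of 1.33 (1.28 to 1.38), or 1.10 after length adjustment. HTB4 had 3329 counts under overexpression against 2580 in wild type, or an RPKM of 604 under overexpression and 452 in wild type, which is the highest of any member, and a ratio of 1.33 (1.27 to 1.41). It gave 48.5% of H2B counts in the overexpression library and 48.4% in wild type. AT2G28720, whose match text names an H2B.4-like protein, had 72 counts under overexpression against 36 in wild type, or an RPKM of 15.1 under overexpression and 7.27 in wild type. Its ratio of 2.07 (1.37 to 3.18) and log2 ratio of 0.96 were the highest of the expressed members, and its length-adjusted log2 ratio of 0.65 was the only one past 1.5-fold higher, against 3.05% of all expressed genes. In the authors' deposited table, whose ratio holds no pseudocount, it had a log2 ratio of 1.05 and an FDR of 0.00275.

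Other H2B genes lay nearer to the class as a whole. HTB11 had 1061 counts under overexpression against 810 in wild type, a ratio of 1.35 (1.24 to 1.49), and HTB1 746 counts under overexpression against 543 in wild type, a ratio of 1.42 (1.27 to 1.59). AT2G37470 had 211 counts under overexpression against 144 in wild type and AT3G53650 had 88 counts under overexpression against 60 in wild type, and both had a ratio of 1.52, with intervals of 1.22 to 1.89 and 1.08 to 2.14. The smallest ratios were those of HTB9, with 839 counts under overexpression against 726 in wild type (1.20, 1.08 to 1.32), HTB2, with 491 counts under overexpression against 408 in wild type (1.24, 1.09 to 1.42), and AT3G09480, with 23 counts under overexpression against 22 in wild type (1.08, 0.576 to 2.03). These 3 were also the H2B genes below 0 after length adjustment.

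**Figure D2:**
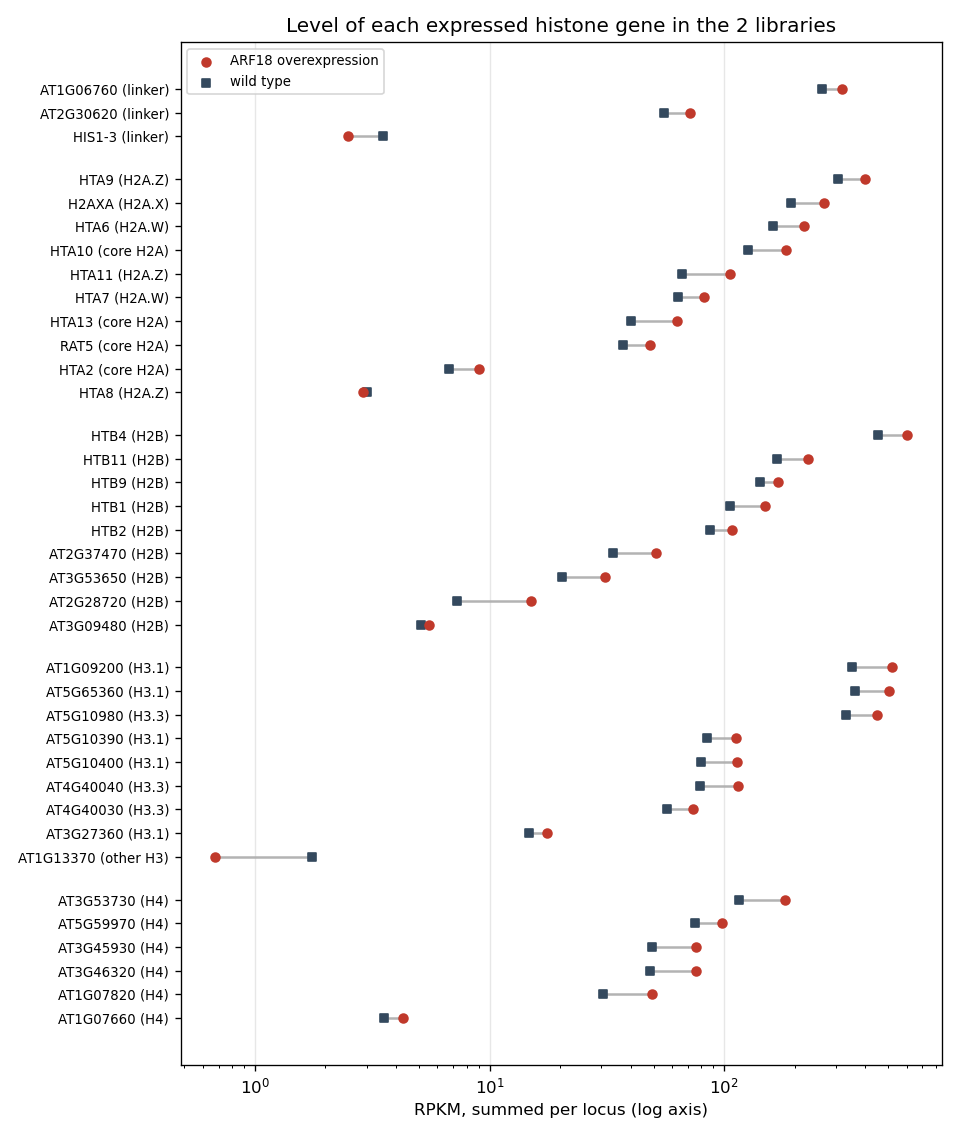
RPKM of the 37 expressed histone genes on a log axis, summed over the transcript models of a locus, with 1 point per library (circles, ARF18 overexpression; squares, wild type) and a grey line between both. Genes are ordered by mean RPKM within each class. The overexpression value is the higher one for all genes but HIS1-3, HTA8 and AT1G13370.

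Replication-coupled H3.1 and replacement H3.3 were both higher. The 12 H3 genes had 9051 counts in the overexpression library and 6707 in wild type, a ratio of 1.40 (1.35 to 1.44), or 1.14 after length adjustment. The 5 H3.1 genes had a ratio of 1.42 (1.36 to 1.48) and the 3 H3.3 genes 1.36 (1.29 to 1.43), and after length adjustment of RPKM these were 1.16 and 1.11. H3.1 made up 64.2% of H3.1 and H3.3 counts in the overexpression library (63.2 to 65.2) and 63.3% in wild type (62.1 to 64.4), so the intervals overlapped.

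Of the H3.1 genes, AT1G09200 and AT5G65360 carried most reads. AT1G09200 had 2156 counts under overexpression against 1507 in wild type, or an RPKM of 520.5 under overexpression and 352 in wild type, and at 1.48 (1.39 to 1.58) its ratio was the highest of the H3.1 genes. For AT5G65360 the counts were 2497 under overexpression and 1849 in wild type, and the ratio 1.40 (1.31 to 1.48). The neighbours AT5G10400 and AT5G10390, which lie 577 bases apart on chromosome 5, had 513 and 538 counts under overexpression against 373 and 419 in wild type, with ratios of 1.42 (1.24 to 1.63) and 1.33 (1.17 to 1.51). AT3G27360 had 100 counts under overexpression against 87 in wild type, and its interval included 1.

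Among the H3.3 genes, AT5G10980 had 2177 counts under overexpression against 1672 in wild type, a ratio of 1.35 (1.26 to 1.44). AT4G40040 had 671 counts under overexpression against 478 in wild type, a ratio of 1.45 (1.29 to 1.64), and AT4G40030, which lies 42 bases from it on chromosome 4, had 387 counts under overexpression against 309 in wild type, a ratio of 1.296 (1.11 to 1.51). The remaining H3 genes held few reads. HTR12, which encodes CENH3, had 4 counts in the overexpression library and 1 in wild type (ratio 4.14, 0.409 to 204). AT1G13370 had 3 counts under overexpression against 8 in wild type and the lowest log2 ratio of the expressed members, -0.71, with an interval of 0.0663 to 1.62. AT1G75600 had 1 count under overexpression against 2 in wild type and HTR11 had 4 counts under overexpression against 2 in wild type.

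Of the matched loci, the H4 genes had the highest summed ratio and are also the shortest class. They had 1840 counts in the overexpression library and 1268 in wild type, a ratio of 1.501 (1.40 to 1.61), whose interval lay above that of H1. After length adjustment the ratio was 1.19, and the median log2 ratio of the 6 genes was 0.62 before and 0.27 after. This rank depends on which loci are counted. With HIS4 and AT5G59690, which the text rule missed and the deposited KEGG text names as H4, H4 had 3312 counts in the overexpression library and 2491 in wild type. The ratio was then 1.38 (1.31 to 1.45), or 1.10 after length adjustment, and H3 had the highest ratio. AT3G53730 had 667 counts under overexpression against 440 in wild type, or an RPKM of 181 under overexpression and 115 in wild type, and a ratio of 1.57 (1.39 to 1.77). AT1G07820 had 228 counts under overexpression against 144 in wild type over its transcript models, and its ratio of 1.64 (1.32 to 2.03) was the highest among members with 200 or more reads. AT3G45930 and AT3G46320, whose upstream sequences are shown above, had 289 and 268 counts under overexpression against 196 and 177 in wild type, with ratios of 1.53 (1.27 to 1.84) and 1.57 (1.29 to 1.90). AT5G59970 had 367 counts under overexpression against 293 in wild type, a ratio of 1.296 (1.11 to 1.52). Its log2 ratio of 0.37 was 0.05 after length adjustment. AT1G07660 had 21 counts under overexpression against 18 in wild type, with an interval that includes 1.

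**Figure D3:**
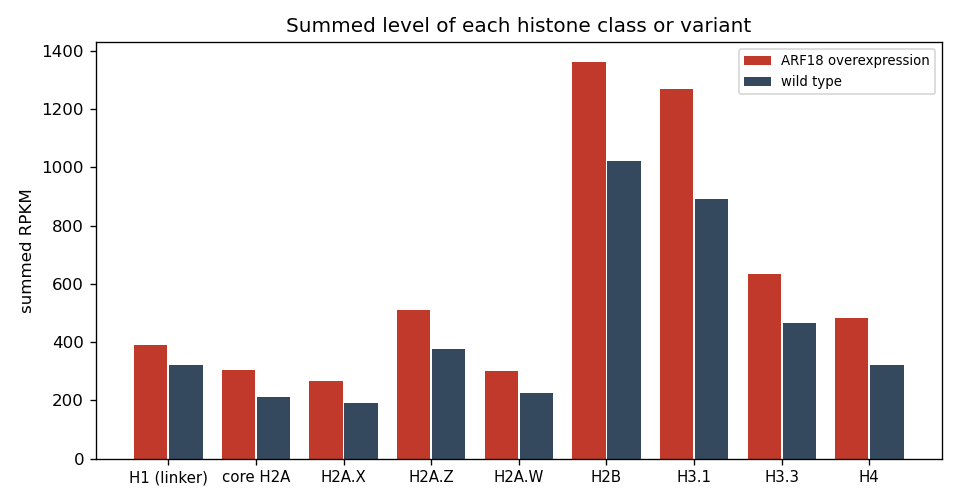
Summed RPKM of the histone genes of each class or variant, with the ARF18 overexpression library in the left bar of each pair and wild type in the right. Every pair shown is higher in the overexpression library, such as H1 with 391 under overexpression and 321 in wild type, and H2B with 1361 under overexpression and 1020.3 in wild type. Not shown are CENH3, the H2A pseudogene and the 3 other H3 genes, which together had 8 counts under overexpression and 12 in wild type for those 3.

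Reads of some members could belong to more than 1 gene. Of the 42 members, 28 shared no stretch of 50 bases with any other annotated transcript. AT3G45930 and AT3G46320 shared 25.7% and 27.9% of their 50-base stretches with each other, and AT1G07820 and AT1G07660 shared 22.2% and 26.7%. HTB9 shared 29.5% with its antisense transcript AT3G07315, AT1G06760 shared 39.2% with its antisense transcript AT1G04503, and AT3G27360 shared 35.6% with SDH2-1, which overlaps it on the same strand. Strandedness is not known here, so reads of a gene and of its antisense transcript cannot be told apart. How the authors' counting placed shared reads is not given in the sources used here, so the values of these genes are uncertain as single genes.

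Members whose upstream sequence held the octamer had a median close to that of the others. The 9 with it had a median log2 ratio of 0.50 (0.22 to 0.64) and the 28 expressed members without it 0.40 (-0.71 to 0.96), and after length adjustment the medians were 0.17 and 0.14. The 10 with the hexamer had 0.47 and the 27 without it 0.41, or 0.14 and 0.15 after length adjustment. Within members with 200 or more reads, the log2 ratio was lower for longer transcripts (Spearman's rho -0.50, n = 28), and after length adjustment rho was -0.07. These correlations are descriptions over genes of the same 2 libraries.

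As measured, the medians of other genes of DNA replication, chromatin assembly and division were nearer to 0 than the histone median of 0.43. After length adjustment those of replication and mitotic genes were not lower than the histone median of 0.15. Of 21 genes listed for DNA replication and S phase, 19 had values here, MCM2 and MCM7 had none, and 13 were expressed. Of these 13, 9 had a log2 ratio above 0, against 53.8% of all expressed genes. Their median was 0.07, or 0.21 after length adjustment. PCNA1, which encodes the sliding clamp of DNA polymerase, had 537 counts in the overexpression library and 430 in wild type, a ratio of 1.29 (1.14 to 1.47). RNR1, the large subunit of ribonucleotide reductase, had 676 counts under overexpression against 902 in wild type, a ratio of 0.775 (0.701 to 0.857), and CYCA3;1, a cyclin, had 25 counts under overexpression against 18 in wild type. RNR1 transcripts are long, and its log2 ratio of -0.36 was -0.09 after length adjustment. In this list 2 counting intervals lay above 1, against 18.7% of all expressed genes, and 1 below, against 15.6%.

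Of 17 listed histone chaperone and remodeller genes, 14 had values here and were expressed, while FAS1, FAS2 and HIRA had none. Of these 14, 8 had a log2 ratio above 0, with a median of 0.09, or 0.02 after length adjustment. In this list 4 counting intervals lay above 1 and 3 below, against the same 18.7% and 15.6% of all expressed genes, and the share above 0 is near their 53.8%. The H3-H4 chaperone genes SGA2 and ASF1B had 269 and 128 counts under overexpression against 195 and 92 in wild type, with ratios of 1.43 (1.18 to 1.72) and 1.44 (1.09 to 1.90). NAP1;2, of H2A-H2B chaperones, had 48 counts under overexpression against 73 in wild type, a ratio of 0.680 (0.462 to 0.992). Of 19 listed mitotic genes, 18 had values here, TPX2 had none, and 17 were expressed. Of these 17, 14 had a log2 ratio above 0, with a median of 0.21, or 0.17 after length adjustment. Above 1 lay 4 of their intervals, near the background of 18.7%, and below 1 none, against 15.6%, while 53.8% of all expressed genes were above 0. Their largest log2 ratios were those of the kinase gene AUR1 (0.69), the B-type cyclin gene CYC1BAT (0.42) and CDC20.1 (0.42). These lists stand beside the histone values because dividing cells hold more histone transcripts, and the part of cell division in the histone values was not tested.

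**Figure D4:**
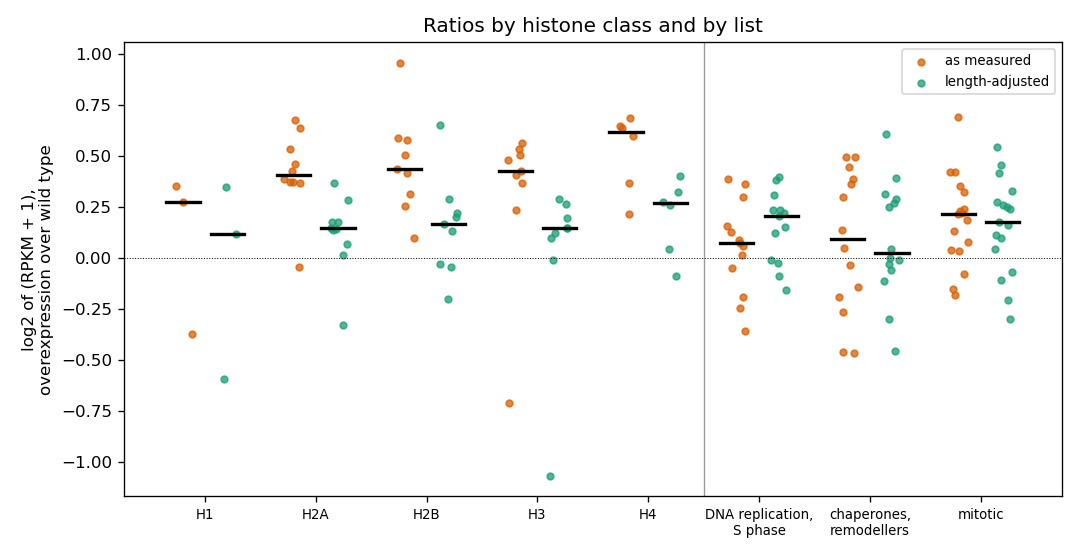
Log2 ratios of (RPKM + 1), overexpression over wild type, for expressed histone genes by class and for 3 lists of other genes, with 1 point per gene as measured (left of each pair) and length-adjusted (right), and black bars at the medians. The medians as measured run from 0.27 for H1 to 0.62 for H4, and the length-adjusted medians of the 5 classes lie between 0.12 and 0.27.

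In the authors' deposited table, 28 of the 50 transcript models of the member loci were higher at an FDR of 0.05 or less. Of all nuclear models, of any length and read depth, 8.11% were. None of the 50 was lower, and no share of all models lower is given here. By a different measure, the counting interval per gene, 65.2% of other genes of 648 to 753 bases with 200 or more reads lay above 1. That share is not on the scale of the authors' FDR, and the 50 models include some with few reads. The lowest FDR was that of AT1G09200, at 5.37e-30 with a log2 ratio of 0.57 in the authors' deposited table. That test, whose name is not given in the sources used here, was run on the reads of 2 libraries, which is a comparison of libraries rather than genotypes.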

How the data were processed

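Per the labels' protocols, total RNA of whole seedlings was taken with Trizol, primed at random and sequenced on an Illumina instrument. The submitters' processing notes name the build TAIR 10. The aligner, the counting program and strandedness are not named by them. Deposited by the authors were raw read counts and RPKM per transcript model, a log2 ratio of the RPKM columns, and p-value and FDR columns. RPKM recomputed from the counts differed by at most 3.2e-06 percent. The authors wrote an RPKM of 0.01 for a count of 0, which was set to 0 here.

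Counts and RPKM were summed over all models of a locus. The rule matched 49 of the 50 models of the 42 loci, and the other one, of AT4G40040, was summed too. Log2 ratios used a pseudocount of 1 RPKM, which understates the difference of low genes, and expressed genes only (mean RPKM at least 1). Length adjustment subtracted the median of 50 bins of transcript length, and GC adjustment that of 50 further bins. GC content was known for 15069 genes. Count ratios carry 95% exact conditional binomial intervals, for counting error only, and the total counts were 6824188 in the overexpression library and 7059226 in wild type. Reads without molecular identifiers are not independent molecules. Nothing says whether seedlings were pooled.

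Members and lists were chosen with earlier results of these data known. Named by rule were every member, and up to 3 members of each list with the largest absolute log2 ratio. Upstream sequences to print were chosen after their letters were seen. Alternatives were pseudocounts of 0.1 and 5 RPKM, trimmed mean of M values (TMM, edgeR) and median-centred scaling, CPM, other filters and thresholds, and other member sets. Steps were tested on simulated counts. Versions were Python 3.11.15, numpy 2.4.6, pandas 2.3.3, scipy 1.17.1, matplotlib 3.10.9, R 4.3.3 and edgeR 4.0.16.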

Additional observations from a re-analysis of the deposited data

How the results depend on the processing

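No paired analysis was possible because there was only 1 library per genotype. The median log2 ratio of 0.43 kept its direction under every alternative run. It was 0.15 with length adjustment, 0.15 with length and GC adjustment, and 0.10 when, as chosen after seeing the data, the length bins were built from genes at a mean RPKM of at least 50 (25 members). Other settings, among them both scalings, matched models only (36 members) and the inclusion of histone loci that the text rule missed (41 members), gave 0.38 to 0.44. The count of members 2-fold higher was 0 and became 1 with a pseudocount of 0.1 RPKM, 8 at 1.5-fold and 30 by counting interval. The count 2-fold lower was 0 and became 1 with a pseudocount of 0.1 RPKM, with each adjustment and at 1.5-fold, each time AT1G13370, which had 11 reads in all. The summed ratio of all members, 1.37, was 1.34 with TMM scaling, 1.32 median-centred and 1.13 length-adjusted. Length-adjusted class ratios were 1.11 for H1, 1.13 for H2A, 1.10 for H2B, 1.14 for H3 and 1.19 for H4, and H3 was 1.35 median-centred. With the missed loci, an alternative chosen after seeing the data, the summed RPKM ratio of H4 was 1.38 (1.4995 without them) and H4 was no longer the highest class. The medians of the 3 other gene lists stayed within the binomial interval of their medians under the settings run. Of 37 members, 25 moved by more than their counting error with length adjustment and none with other pseudocounts or scalings. Depth limits the 9 expressed members with fewer than 200 reads.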

Other observations

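Some loci that the reference annotates as histones were not matched, because their match text in the deposited table names none of the classes. AT5G59690, a histone superfamily protein in the reference annotation and H4 in the deposited KEGG text, had 1207 counts in the overexpression library and 1014 in wild type, a ratio of 1.23 (1.13 to 1.34), and more reads than any matched H4 gene. HIS4, an H4 gene, had 265 counts under overexpression against 209 in wild type, a ratio of 1.31 (1.09 to 1.58). GAMMA-H2AX, the partner of H2AXA among H2A.X genes, had 591 counts under overexpression against 472 in wild type, a ratio of 1.295 (1.15 to 1.46). AT5G02570, H2B in the KEGG text, had 15 counts under overexpression against 6 in wild type, a ratio of 2.59 (0.948 to 8.14), and its log2 ratio of 1.06 was past 2-fold and larger than that of any expressed member. Length-adjusted log2 ratios were 0.72 for AT5G02570, 0.12 for GAMMA-H2AX, 0.01 for HIS4 and 0 for AT5G59690, which is itself the median of its length bin. These genes were named after their values were seen.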
